A study of Mus musculus with 24 samples.

Results

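The genes described here are 9 whose transcripts mark layers of the cerebral cortex: Cux1, Cux2, Rasgrf2 and Rorb of the upper layers, and Bcl11b, Fezf2, Etv1, Tbr1 and Foxp2 of the deep layers. All probe sets (groups of short oligonucleotides on the array that together give 1 value) whose gene symbol in the platform annotation was one of these were taken. That gave 30 of the 45037 probe sets tested, 18 of upper-layer and 12 of deep-layer genes, for 8 of the 9 genes. Cux1 had 9 probe sets, Foxp2 had 6, Bcl11b had 4, Cux2, Rasgrf2 and Rorb had 3 each, and Fezf2 and Tbr1 had 1 each. The 3 probe sets that carry the symbol Etv1 also carry the symbol of a pseudogene, Gm5454, so they name no single gene. Their values are given apart and enter no count.

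The series holds 24 Affymetrix GeneChip arrays of total RNA from wild-type male C57BL/6 mice, 3 arrays in each of 8 groups. The mice were 6 to 8 weeks old when bought, before the weeks of treatment, and so older when the tissue was taken. The age in the free-text sample descriptions rises by 1 week from sample to sample and was not used. Chronic mild stress (CMS), a fixed sequence of changing mild stressors on 6 days per week over 4 weeks, was set against no CMS (control) in 4 areas: Amy (amygdala), Hippo (hippocampus), PFC (prefrontal cortex) and CC (cerebral cortex). The deposited values are log2 signals, centred so that the median of every probe set over the 24 arrays is 0. A positive value is therefore above that gene's own median and not a level, and no probe set can be compared with another. The labels number the 3 arrays as biological replicates, the study's methods speak of pooled RNA, and the p-values thus measure the spread between these arrays, which may be technical.

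The neocortex is built of layers that differ in the targets of their neurons. Neurons of the upper layers mostly connect cortical areas with each other, those of layer 4 receive input from the thalamus, and those of the deep layers send axons to the thalamus, brainstem and spinal cord. Most of the 9 genes encode transcription factors that specify or keep these identities, and none is confined to the cortex: Bcl11b and Foxp2 also mark projection neurons of the striatum, Bcl11b is expressed in the hippocampus, and Foxp2 in the thalamus.

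Lists of other marker genes were read beside the layer genes to describe what each dissection held, as the mean log2 value over a list and as calls per gene. A gene, the mean of its probe sets, was called at a Benjamini-Hochberg adjusted p under 0.05 in limma and a difference above 2-fold. In control arrays 8 of 9 hippocampus genes were called higher in Hippo than in CC (1.75% of all 18193 genes were), and 5 of 7 amygdala genes were called higher in Amy than in CC (2.3% of all genes). Of 15 striatum genes, 14 were called higher in Amy than in CC and 14 higher in PFC than in CC (1.56% of all genes in PFC), and 7 of 7 olfactory bulb genes were called higher in PFC than in CC. The 5 choroid plexus genes averaged between -1.81 and -1.69 in the CMS arrays of CC and between 2.38 and 2.59 in its control arrays. Probe sets for added bacterial RNA averaged 0.82 ± 0.07 in CMS Amy and 0.01 in control Amy (SD, n = 3 arrays each). In Hippo they averaged -1.48 ± 0.02 with CMS and -1.11 ± 0.04 in controls. The means were 0.14 ± 0.03 in CMS PFC and -0.17 ± 0.05 in control PFC, and 0.01 ± 0.04 in CMS CC and 0.15 ± 0.10 in control CC. In each of the 4 areas the CMS and control arrays did not overlap in this mean.

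The first question was whether the layer genes differ between the 4 areas in control mice. They did for most: 23 of the 30 probe sets were called by limma's moderated F test, at an adjusted p under 0.05 and group means that spanned more than 2-fold, against 12.5% of all probe sets. Taken as genes, 7 of 8 were called, against 10.4% of all genes, and Rasgrf2 missed the fold limit with a span of 0.98. The median span was 1.81 on the log2 scale over the 30 probe sets and 0.29 over all. RNA of a bulk dissection cannot tell fewer cells of a type from less RNA per cell.

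**Figure D1:**
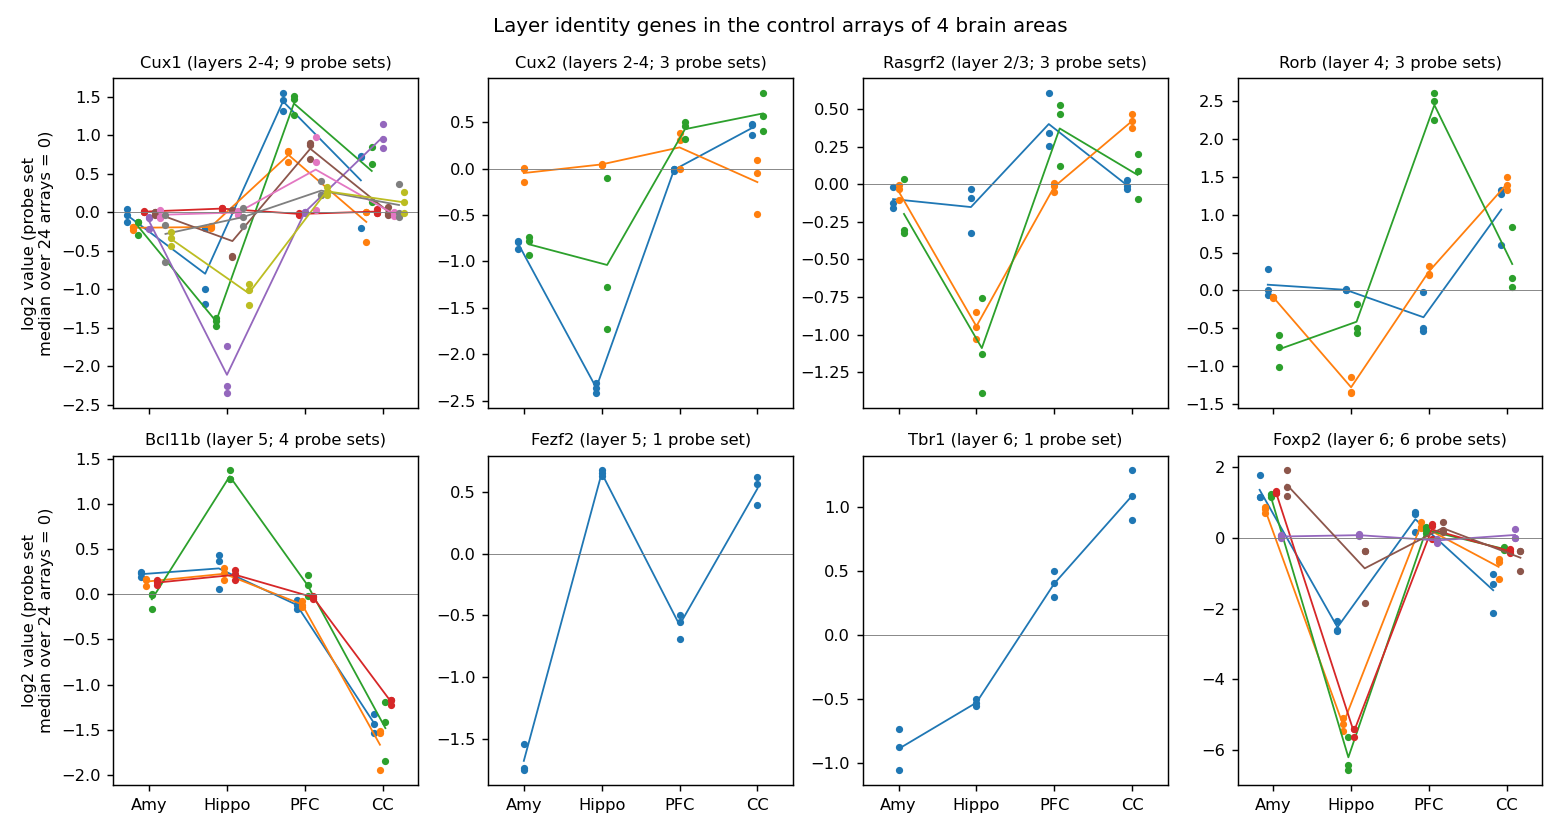
Log2 values of the layer genes in the 3 control arrays of each area, Amy, Hippo, PFC and CC from left to right, with 1 panel per gene, 1 colour per probe set, points for arrays and lines through the group means. The upper-layer panels dip in Hippo for most probe sets, all 4 Bcl11b probe sets are lowest in CC, Fezf2 is lowest in Amy, and 4 of 6 Foxp2 probe sets fall below -2 in Hippo.

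The pairwise comparisons, which share control arrays with each other, showed Hippo as the area in which most probe sets were lower. These counts hold several probe sets of the same gene. Of the 8 genes, Hippo minus CC had 1 called higher and 4 lower (1.75% and 2.99% of all genes). Amy minus CC had 2 called higher and 3 lower (2.3% and 1.91%). In Hippo minus CC 4 probe sets were called higher and 15 lower, against 1.99% and 3.93% of all probe sets. In Hippo minus PFC 2 were called higher and 15 lower, against 1.86% and 3.35%. In Amy minus CC 9 were called higher and 7 lower, against 2.26% and 2.22%, and the 9 were the 4 of Bcl11b and 5 of the 6 of Foxp2. In PFC minus CC 8 were called higher and 3 lower (1.77% and 1.74% of all), in Amy minus PFC 2 higher and 6 lower (2.36% and 2.1%), and in Amy minus Hippo 9 higher and 2 lower (3.75% and 2.24%). In either direction these shares of all probe sets were 4.48% in Amy minus CC, 5.92% in Hippo minus CC, 3.51% in PFC minus CC, 4.46% in Amy minus PFC, 5.2% in Hippo minus PFC and 6% in Amy minus Hippo.

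By adjusted p alone, 25 of the 30 differed between areas, against 49.1% of all probe sets. The pairs gave 20 in Amy minus CC (24.6% of all), 20 in Hippo minus CC (29.2%), 21 in PFC minus CC (26.5%), 21 in Amy minus PFC (30%), 26 in Hippo minus PFC (57.6%) and 15 in Amy minus Hippo (31.7%). Of the 8 genes 5 were called in Amy minus CC (4.22% of all genes), 5 in Hippo minus CC (4.74%), 2 in PFC minus CC (2.36%), 3 in Amy minus PFC (3.61%), 5 in Hippo minus PFC (4.67%) and 2 in Amy minus Hippo (5.14%).

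Among the upper-layer genes, Cux2, a cut-homeodomain transcription factor of layers 2 to 4, separated all 4 areas in 1 of its 3 probe sets. Probe set 1447500_at had log2 values of -0.87, -0.78 and -0.79 in the control arrays of Amy and -2.41, -2.36 and -2.30 in those of Hippo. PFC averaged -0.01 ± 0.02 (SD, n = 3), and the control arrays of CC stood at 0.48, 0.47 and 0.36. No array of one area overlapped with those of another. Hippo minus CC was -2.80 ± 0.04 (SE) on the log2 scale, a 6.94-fold difference (adjusted p = 2e-10, limma), and the step between the neighbours PFC and CC was -0.45 (adjusted p = 3e-05). Probe set 1450181_at divided the areas into the same 2 pairs, with Amy at -0.82 ± 0.10 and Hippo at -1.04 ± 0.84 below PFC at 0.42 ± 0.10 and CC at 0.59 ± 0.20. Within each pair the areas did not differ beyond their spread (Amy minus Hippo 0.22, adjusted p = 0.60, and PFC minus CC -0.17, adjusted p = 0.70). The third probe set, 1447821_at, spanned 0.37 and was not called (adjusted p = 0.17).

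Cux1, the paralogue of Cux2 in the same layers, is read by 9 probe sets that disagreed. Of these, 5 were called across areas and all 5 had their lowest mean in Hippo. Probe set 1434683_at was lowest in Hippo, at -2.11 ± 0.33, and highest in CC, at 0.98 ± 0.16, a difference of -3.09 ± 0.14 (SE) in Hippo minus CC. In contrast, 1425611_a_at averaged -0.19 ± 0.10 in Amy, -1.42 ± 0.05 in Hippo, 1.41 ± 0.13 in PFC and 0.54 ± 0.37 in CC, so that PFC lay 0.88 above CC (adjusted p = 0.0023), below the fold limit. The signal of 1424667_a_at was also highest in PFC, at 1.44 ± 0.11, and passed both limits against CC (1.03, adjusted p = 0.027). By adjusted p 5 of the 9 were higher and 1 lower in PFC than in CC, with 1 called higher and none lower. The mean of the 9 was 0.39 ± 0.06 (SE) higher in PFC, under 2-fold and without overlap of the arrays (adjusted p = 0.00069 over genes). Probe set 1425612_at was nearly flat, with a span of 0.07 over the 4 areas.

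Rasgrf2, which encodes an exchange factor that activates Ras and marks layer 2/3 neurons, was low in Hippo in 2 of 3 probe sets. The 3 Hippo control arrays of 1440849_at stood at -0.95, -1.03 and -0.85 and the 3 CC control arrays at 0.42, 0.47 and 0.37. The difference in Hippo minus CC was -1.37 ± 0.05 (SE, adjusted p = 3.2e-08), and that of 1440918_at was -1.15 ± 0.18 (adjusted p = 0.0007). Probe set 1421621_at spanned only 0.55, with its highest mean in PFC, at 0.40 ± 0.18.

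Rorb, a nuclear receptor that marks layer 4, was highest in CC in 2 of its 3 probe sets. For 1439862_at Amy averaged -0.09, Hippo -1.28 ± 0.12 and PFC 0.25 ± 0.07 (SD, n = 3), while the 3 control arrays of CC stood at 1.39, 1.49 and 1.33. PFC minus CC was -1.15 ± 0.06 (SE, adjusted p = 1.6e-06), and -1.42 ± 0.20 for 1425162_at (adjusted p = 0.00055). The third probe set, 1455799_at, had the opposite order between these areas: PFC stood at 2.50, 2.60 and 2.25 and CC at 0.16, 0.05 and 0.83, so that PFC was 2.10 ± 0.21 (SE) higher (adjusted p = 6.1e-05). The 7 olfactory bulb genes averaged between 4.69 and 4.73 in the PFC control arrays and between -0.67 and -0.56 in those of CC. The part of that tissue in the PFC value of 1455799_at was not tested.

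As means of their probe sets, upper-layer genes varied together over the arrays. The 250 bases upstream of the start of Rorb and of Rasgrf2 are shown as the upper-layer windows that lie outside the gene body in RefSeq (GRCm38.p6). The Rorb window is chr19:19111197-19111446 on the minus strand, with 66% G and C, and the Rasgrf2 window is chr13:92131829-92132078 on the minus strand, with 65.2%. Capitals mark the GC box GGGCGG on either strand (CCGCCC on the strand shown), which binds Sp factors.
Rorb: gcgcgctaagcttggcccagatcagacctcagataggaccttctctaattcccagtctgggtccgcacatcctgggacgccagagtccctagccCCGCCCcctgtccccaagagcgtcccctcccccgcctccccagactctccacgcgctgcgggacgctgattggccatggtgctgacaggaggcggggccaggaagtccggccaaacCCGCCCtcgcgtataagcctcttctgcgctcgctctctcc
Rasgrf2: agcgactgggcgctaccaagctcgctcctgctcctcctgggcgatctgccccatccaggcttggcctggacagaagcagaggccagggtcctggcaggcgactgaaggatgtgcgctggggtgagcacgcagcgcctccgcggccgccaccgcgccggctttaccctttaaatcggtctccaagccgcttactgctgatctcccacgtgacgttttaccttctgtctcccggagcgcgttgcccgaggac
The GC box occurred 2 times in the Rorb window and not in that of Rasgrf2, and 32.7% of the 32851 windows of this length hold it. Of the 11 windows of 8 of the 9 genes, 3 held it (Rorb, Tbr1 and Fezf2), 3 held the forkhead motif TGTTTA (12% of all windows) and 1 window of Cux2 held the cut-homeodomain motif ATCGAT (0.728% of all). No window held the T-box motif AGGTGT (11.8% of all) or the nuclear receptor half-site AGGTCA (14% of all), each searched on both strands.

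Among the deep-layer genes, Bcl11b, the zinc finger factor of layer 5 neurons that project to the spinal cord, was lowest in CC with all 4 of its probe sets. For 1452966_at the control arrays of Amy stood at 0.10, 0.13 and 0.16, those of Hippo at 0.23, 0.16 and 0.26 and those of CC at -1.17, -1.17 and -1.23. PFC, at -0.03 ± 0.02, was 1.15 ± 0.03 (SE) higher than CC (adjusted p = 1.2e-08). All 4 probe sets were called higher in each of Amy, Hippo and PFC than in CC, by 1.15 to 2.79. Hippo was set apart in 1450339_a_at alone, at 1.31 ± 0.06, with Amy minus Hippo at -1.36 (adjusted p = 5e-05). The 15 striatum genes had means between 1.34 and 1.35 in the Amy control arrays, between -2.51 and -2.47 in those of Hippo, where Bcl11b was high, between 0.97 and 1.04 in those of PFC and between -2.76 and -2.57 in those of CC.

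Fezf2, a zinc finger factor that acts upstream of Bcl11b in layer 5, had a different order. Its 1 probe set had log2 values of -1.74, -1.75 and -1.54 in the control arrays of Amy, 0.65, 0.63 and 0.67 in those of Hippo, -0.69, -0.55 and -0.49 in those of PFC and 0.62, 0.56 and 0.39 in those of CC. Amy minus CC was -2.20 ± 0.08 (SE), a 4.61-fold difference (adjusted p = 4.2e-08). The Hippo arrays lay just above those of CC, but the difference did not pass (0.13, adjusted p = 0.22). Beside it, 5 of 8 pallial excitatory genes were called lower in Amy than in CC (1.91% of all genes were).

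Tbr1, a T-box factor of layer 6 neurons that project to the thalamus, was higher in PFC and CC than in Amy and Hippo. It stood at -1.06, -0.74 and -0.88 in the control arrays of Amy, -0.53, -0.56 and -0.50 in those of Hippo, 0.40, 0.50 and 0.30 in those of PFC and 0.89, 1.08 and 1.28 in those of CC. No 2 areas overlapped. Amy minus CC was -1.98 ± 0.10 (SE) and Hippo minus CC -1.62 ± 0.10 (adjusted p = 7.1e-07 and 2.1e-06).

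Foxp2, a forkhead factor of layer 6, had the widest range of the 9 genes. For 1438232_at the control arrays of Amy stood at 1.15, 1.22 and 1.20, those of Hippo at -6.43, -6.55 and -5.61, those of PFC at 0.21, 0.31 and 0.13 and those of CC at -0.36, -0.32 and -0.27. Hippo minus CC was -5.88 ± 0.20 (SE), a 59-fold difference (adjusted p = 3.1e-08), and Amy 1.51 ± 0.20 higher than CC (adjusted p = 0.00034). Highest in Amy were 5 of the 6 probe sets, each called higher there than in CC, by 1.51 to 2.83. The 15 striatum genes averaged 1.35 in the control arrays of Amy, 1.00 in PFC, -2.49 in Hippo and -2.64 in CC. Their part in the Foxp2 values was not tested. For 1441365_at, the sixth, the span was 0.15 and not called (adjusted p = 0.14). The centred table holds no background level, so whether the Hippo arrays were above background cannot be read.

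The 3 probe sets shared by Etv1, an ETS factor of layer 5, and Gm5454 did not follow 1 pattern. For 1422607_at Amy was lowest, at -0.76, -0.75 and -0.58 in its control arrays, and Amy minus CC was -0.63 ± 0.07 (SE) (adjusted p = 9.6e-05). For 1450684_at PFC was lowest, at -0.71 ± 0.07, and PFC minus CC was -1.20 ± 0.05 (SE) (adjusted p = 2.3e-07). For 1445314_at the areas did not pass the test (adjusted p = 0.089).

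Other genes known from these layers, in lists of 15 upper-layer, 16 layer 5 and 16 layer 6 genes measured, differed between areas in both directions. By the F test 9, 10 and 8 of them were called, against 10.4% of all genes. In Hippo minus CC 1 upper-layer gene was called higher and 6 lower, 3 layer 5 genes higher and 3 lower, and no layer 6 gene higher and 5 lower, against 1.75% higher and 2.99% lower over all genes. Rspo1, a secreted enhancer of Wnt signalling, differed by -6.13 on the log2 scale (adjusted p = 1.6e-09), and Lamp5, a membrane protein of endosomes, by -3.40. Cplx3, a complexin of the subplate, differed by -3.40 and Ntsr1, the neurotensin receptor of corticothalamic neurons, by -1.78, whereas the thyroid hormone binding protein Crym was 2.33 higher. In Amy minus CC 1 upper-layer gene was called higher and 3 lower, 1 layer 5 gene higher and 3 lower, and 2 layer 6 genes higher and 2 lower, against 2.3% and 1.91% of all genes. Cplx3 differed by -3.09 there, while Oprk1, the kappa opioid receptor, was 2.17 higher. In PFC minus CC the counts were 1 higher and 3 lower, 2 and 2, and 0 and 2, against 1.56% and 0.803% of all genes, and Tshz2, a teashirt zinc finger factor of layer 5, differed by -2.50.

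The second question was whether CMS changed the layer genes within an area. In each area 1 of the 30 probe sets passed both limits, a different gene each time: Cux2 in Amy, Foxp2 in Hippo, Cux1 in PFC and Bcl11b in CC. The shares of all probe sets called were 1.19% in Amy (0.413% higher and 0.777% lower), 0.651% in Hippo (0.546% and 0.104%), 0.209% in PFC (0.0999% and 0.109%) and 1.12% in CC (0.875% and 0.244%). On genes none of the 8 was called in any area (0.583%, 0.253%, 0.247% and 0.357% of all genes were), though 4 genes in Amy, 3 in Hippo, 2 in PFC and 2 in CC passed the adjusted p alone in limma, against 19.4%, 29.6%, 8.37% and 9.94% of all genes. Without overlap between CMS and control arrays were 15 probe sets in Amy, 13 in Hippo, 12 in PFC and 18 in CC, against 59.2%, 60.6%, 49.4% and 55.6% of all probe sets.

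**Figure D2:**
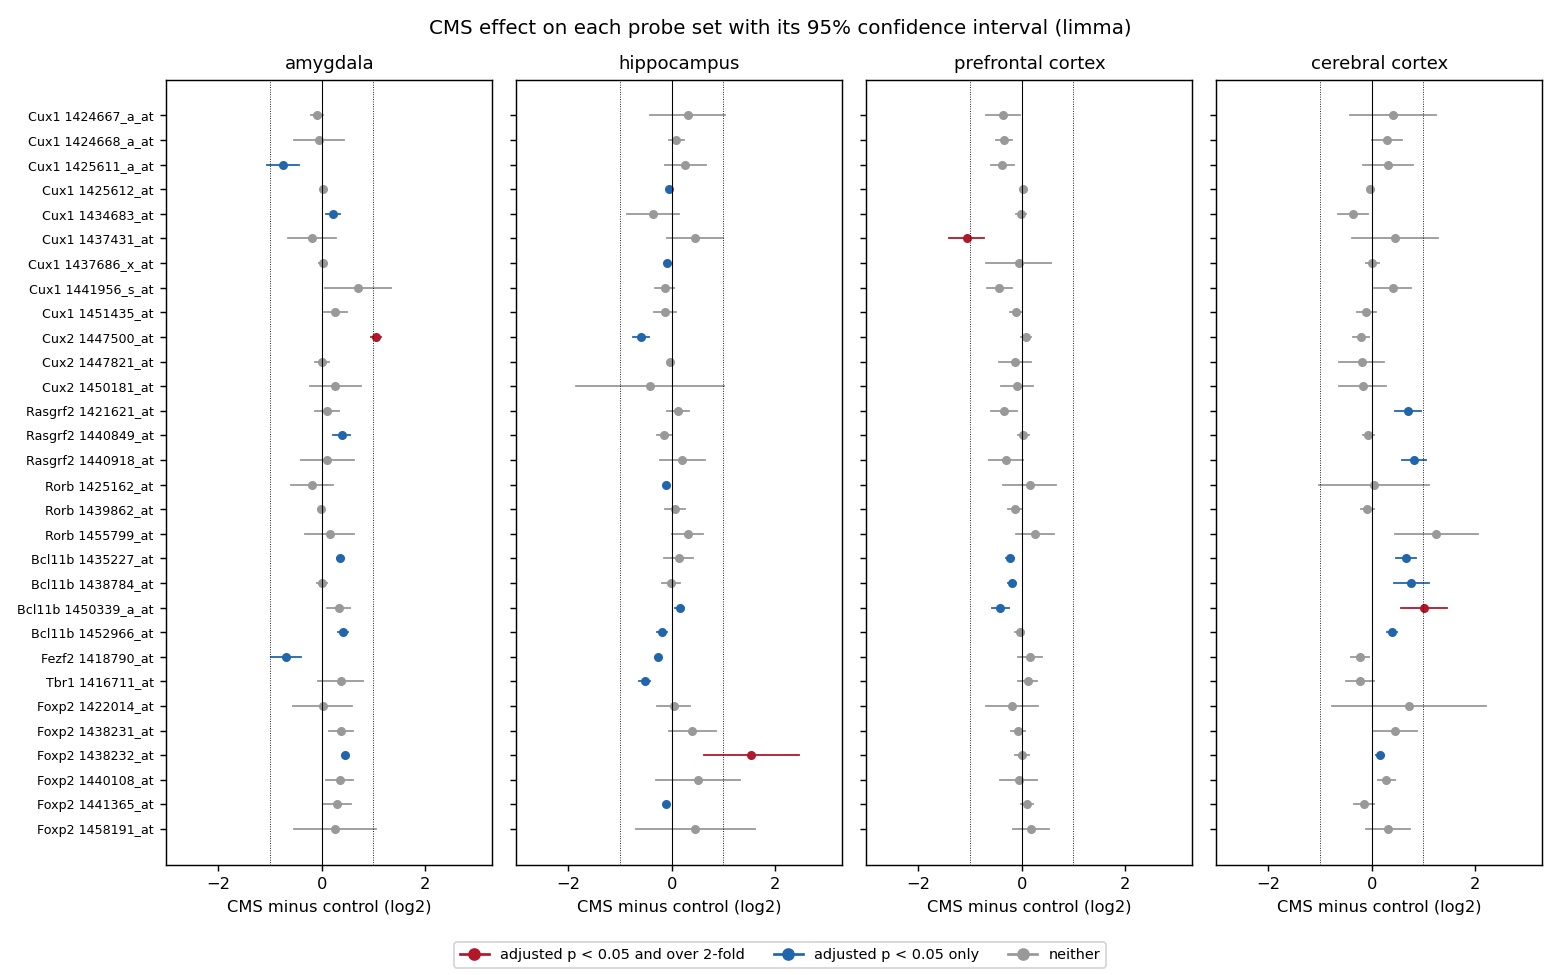
Difference between CMS and control arrays for each of the 30 probe sets (log2, points) with the 95% confidence interval from limma (bars), in Amy, Hippo, PFC and CC from left to right; dotted lines mark 2-fold, red marks probe sets past both limits and blue those with an adjusted p under 0.05 alone. In CC the 4 Bcl11b probe sets lie to the right of 0, between 0.40 and 1.01, and in PFC all 4 lie to the left, between -0.41 and -0.04, of which 3 pass the adjusted p.

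By adjusted p alone, 8 probe sets passed in Amy, 6 higher and 2 lower, against 11.4% and 6.88% of all probe sets (18.3% in either direction). In Hippo 2 were higher and 8 lower, against 5.68% and 35% (40.7% in all), in PFC none was higher and 4 lower, against 2.78% and 2.48% (5.26% in all), and in CC 7 were higher and none lower, against 5.49% and 3.67% (9.15% in all). The 7 in CC were the 4 of Bcl11b, 2 of Rasgrf2 and 1 of Foxp2. At an unadjusted p under 0.05 in limma, 15, 13, 10 and 15 of the 30 passed in Amy, Hippo, PFC and CC, against 37.4%, 53.7%, 18.7% and 22.1% of all probe sets.

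In Amy, Cux2 rose. Probe set 1447500_at stood at 0.28, 0.19 and 0.27 in the CMS arrays and at -0.87, -0.78 and -0.79 in the control arrays. The CMS arrays were all above 0 and the control arrays all below, a difference of 1.06 ± 0.04 (SE) on the log2 scale or 2.08-fold (adjusted p = 0.00086, limma). With CMS the means were 0.24 ± 0.05 in Amy, 0.07 ± 0.07 in PFC and 0.23 ± 0.10 in CC (SD, n = 3). The other 2 Cux2 probe sets gave 0.26 (1450181_at, adjusted p = 0.33) and 0.01 (1447821_at, adjusted p = 0.92). The call held without any single array.

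In the other areas the same probe set went the other way or did not pass. The Hippo arrays stood at -2.97, -3.04 and -2.85 with CMS and at -2.41, -2.36 and -2.30 in controls, a fall of 0.59 (adjusted p = 0.0083) that was under the fold limit. PFC gave 0.09 (adjusted p = 0.33) and CC -0.21 (adjusted p = 0.12).

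In addition single probe sets of 2 more upper-layer genes passed the adjusted p in Amy, all under 2-fold. As means of their probe sets neither gene passed in limma (Rasgrf2 adjusted p = 0.22, Cux1 adjusted p = 0.84, over genes). Rasgrf2 1440849_at averaged 0.34 ± 0.11 with CMS and -0.05 ± 0.05 in controls, 0.38 higher (adjusted p = 0.023). Cux1 1425611_a_at, at -0.94 ± 0.20 with CMS and -0.19 ± 0.10 in controls, fell by 0.75 (adjusted p = 0.019), while Cux1 1434683_at rose by 0.22 (adjusted p = 0.049), so the gene had no single direction. Among the deep-layer genes Fezf2 fell further in the area where it was lowest. Its values were -2.21, -2.34 and -2.56 in CMS Amy and -1.74, -1.75 and -1.54 in control Amy, a fall of 0.69 ± 0.11 (SE, adjusted p = 0.021). Bcl11b rose with 2 of 4 probe sets, by 0.36 for 1435227_at and 0.41 for 1452966_at (adjusted p = 0.0039 and 0.0056), and Foxp2 with 1 of 6, by 0.45 for 1438232_at (adjusted p = 0.0018). Of the shared Etv1 and Gm5454 probe sets, 1422607_at fell by 0.73 (adjusted p = 0.0061) and 1450684_at by 0.52 (adjusted p = 0.012). Beside these, 11 of the 15 striatum genes passed the adjusted p as higher in CMS Amy (10.5% of all genes) and their mean lay between 1.68 and 1.75 in CMS arrays and between 1.34 and 1.35 in control arrays. Of the 9 hippocampus genes 3 were called lower in CMS Amy (0.44% of all genes), with list means between -0.19 and -0.06 in CMS arrays and between 0.48 and 0.59 in control arrays. All 5 oligodendrocyte genes and 3 of 4 astrocyte genes passed the adjusted p as lower in CMS Amy (8.84% of all genes). The oligodendrocyte mean lay between -0.53 and -0.50 in CMS arrays and between -0.05 and 0.02 in control arrays, and the astrocyte mean between 0.03 and 0.11 in CMS arrays and between 0.28 and 0.34 in control arrays. The choroid plexus mean lay between -1.19 and -1.11 in CMS arrays and between -0.52 and -0.42 in control arrays, where 1 of 5 genes passed as higher and 1 as lower. Of the 7 amygdala genes 3 passed the adjusted p as lower and none as higher. Their mean lay between 0.69 and 0.83 in CMS arrays and between 0.93 and 1.04 in control arrays. The olfactory bulb mean was 0.69 in CMS replicate 1, 0.38 and 0.34 in the other CMS arrays and between 0.34 and 0.36 in control arrays. The part of these lists in the results for Amy was not tested.

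In Hippo, Foxp2 rose with 1 of its 6 probe sets. The log2 values of 1438232_at were -4.43, -4.37 and -5.18 in the CMS arrays and -6.43, -6.55 and -5.61 in the control arrays, which do not overlap, and remain below all arrays of other areas. The difference was 1.54 ± 0.35 (SE) or 2.9-fold (adjusted p = 0.031). The other probe sets that were very low in Hippo gave 0.51 (1440108_at, adjusted p = 0.24), 0.40 (1438231_at, adjusted p = 0.12) and 0.04 (1422014_at, adjusted p = 0.82), and 1441365_at fell by 0.11 (adjusted p = 0.020). The call was lost without CMS replicate 1, 2 or 3 (adjusted p = 0.080, 0.094 and 0.060) and without control replicate 1 or 2 (adjusted p = 0.0998 and 0.091), at differences of 1.36 to 1.80. Of 12 thalamus and habenula genes 7 were called higher in CMS Hippo than in control Hippo (0.143% of all genes), with Tnnt1, Shox2 and Zic1 the most changed at 2.33, 2.22 and 2.18. Their list mean lay between 0.83 and 0.94 in CMS arrays and between -0.30 and -0.21 in control arrays, and its part in the Foxp2 value was not tested.

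Tbr1 and Fezf2 fell in Hippo, each under 2-fold. Tbr1 stood at -0.98, -1.09 and -1.09 in CMS Hippo and at -0.53, -0.56 and -0.50 in control Hippo, a fall of 0.52 ± 0.04 (SE, adjusted p = 0.0058). Fezf2 stood at 0.41, 0.40 and 0.34 with CMS and at 0.65, 0.63 and 0.67 in controls, a fall of 0.27 ± 0.02 (adjusted p = 0.0067). Of the 4 Bcl11b probe sets 1450339_a_at rose by 0.16 and 1452966_at fell by 0.18 (adjusted p = 0.027 for both). In Hippo 35% of all probe sets passed the adjusted p as lower, and the count of 8 lower layer gene probe sets of 30 is below that share.

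**Figure D3:**
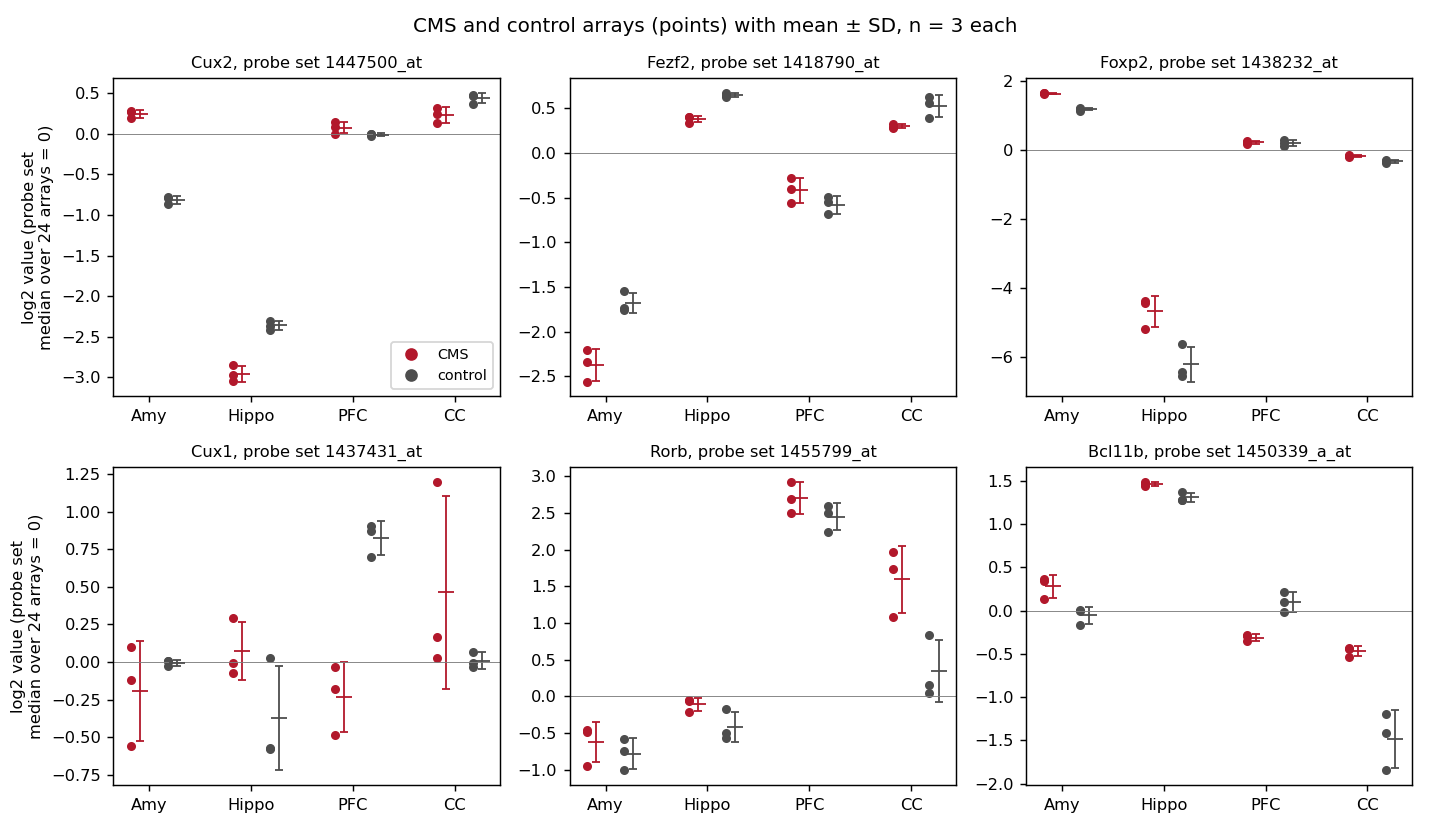
Log2 values of 6 probe sets in the 3 CMS arrays (red, left) and the 3 control arrays (grey, right) of each area, with the mean ± SD beside the points. CMS and control arrays do not overlap for Cux2 in Amy, Foxp2 in Hippo, Cux1 in PFC and Bcl11b in CC, which are the 4 probe sets past both limits, nor for Fezf2 in Amy or Rorb in CC.

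In PFC, Cux1 fell with 1 of 9 probe sets. The values of 1437431_at were -0.49, -0.03 and -0.18 in the CMS arrays and 0.88, 0.70 and 0.90 in the control arrays, without overlap, and the difference was -1.06 ± 0.13 (SE) or 2.08-fold lower (adjusted p = 0.021). Of the other 8 none passed, and those nearest were 1424668_a_at at -0.34 (adjusted p = 0.051) and 1441956_s_at at -0.43 (adjusted p = 0.075). The mean of the 9 fell by 0.30 (adjusted p = 0.016 over genes). The call was lost without CMS replicate 1 (-0.93, under 2-fold) or 3 (adjusted p = 0.067) and without control replicate 1, 2 or 3 (adjusted p = 0.069, 0.055 and 0.082).

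The remaining 3 probe sets that passed the adjusted p in PFC were of Bcl11b. It fell by 0.41 for 1450339_a_at, with -0.28, -0.30 and -0.36 in CMS arrays and -0.01, 0.10 and 0.22 in control arrays (adjusted p = 0.033), by 0.22 for 1435227_at and by 0.18 for 1438784_at (adjusted p = 0.025 and 0.036). The fourth gave -0.04 (adjusted p = 0.44). The striatum genes were also lower in CMS PFC than in control PFC: 7 of 15 passed the adjusted p as lower and 1 as higher (3.92% and 4.45% of all genes), with list means between 0.71 and 0.76 in CMS arrays and between 0.97 and 1.04 in control arrays. Of the choroid plexus genes 3 of 5 passed as lower, with list means between -1.68 and -1.61 in CMS arrays and between 0.17 and 0.42 in control arrays. Of the oligodendrocyte genes 4 of 5 passed as lower, with means between -0.37 and -0.33 in CMS arrays and between -0.12 and -0.07 in control arrays. Of the 7 olfactory bulb genes 2 passed as higher and none as lower, with means between 4.94 and 5.02 in CMS arrays and between 4.69 and 4.73 in control arrays. The part of these lists in the Cux1 and Bcl11b values was not tested.

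In CC, Bcl11b rose with all 4 probe sets, of which 1 passed the fold limit. Probe set 1450339_a_at stood at -0.43, -0.54 and -0.44 in the CMS arrays and at -1.41, -1.19 and -1.85 in the control arrays, a difference of 1.01 ± 0.17 (SE) or 2.02-fold (adjusted p = 0.028). The increases of the other 3 were 0.76 for 1438784_at (adjusted p = 0.030), 0.67 for 1435227_at (adjusted p = 0.0094) and 0.40 for 1452966_at (adjusted p = 0.0061), and no CMS array overlapped with a control array in any of the 4. The mean of the 4 was 0.71 ± 0.08 (SE) higher (adjusted p = 0.0078 over genes), which left CMS CC still the lowest of the 4 areas. The fold limit was missed without CMS replicate 1 or 3 (0.99 and 0.9988) or control replicate 3 (0.83), and the adjusted p without CMS replicate 1, 2 or 3 (0.094, 0.083 and 0.095) or control replicate 1 (0.078).

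Of the striatum genes 10 of 15 were called higher in CMS CC than in control CC and none lower (0.192% and 0.165% of all genes), with a median difference of 1.55 against -0.03 over all genes. Their mean lay between -0.98 and -0.91 in the CMS arrays and between -2.76 and -2.57 in the control arrays, and all 5 choroid plexus genes were called lower in CMS CC. By adjusted p alone, 4 of 5 oligodendrocyte, 2 of 4 astrocyte and 4 of 8 interneuron genes were higher in CMS CC and none lower (5.95% and 3.99% of all genes). The oligodendrocyte mean was 0.18 ± 0.02 in CMS arrays and -0.04 in control arrays, the astrocyte mean -0.02 ± 0.01 in CMS arrays and -0.39 ± 0.07 in control arrays, and the interneuron mean 0.34 ± 0.02 in CMS arrays and 0.22 ± 0.02 in control arrays (SD, n = 3 each). The part of these lists in the results for CC was not tested.

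**Figure D4:**
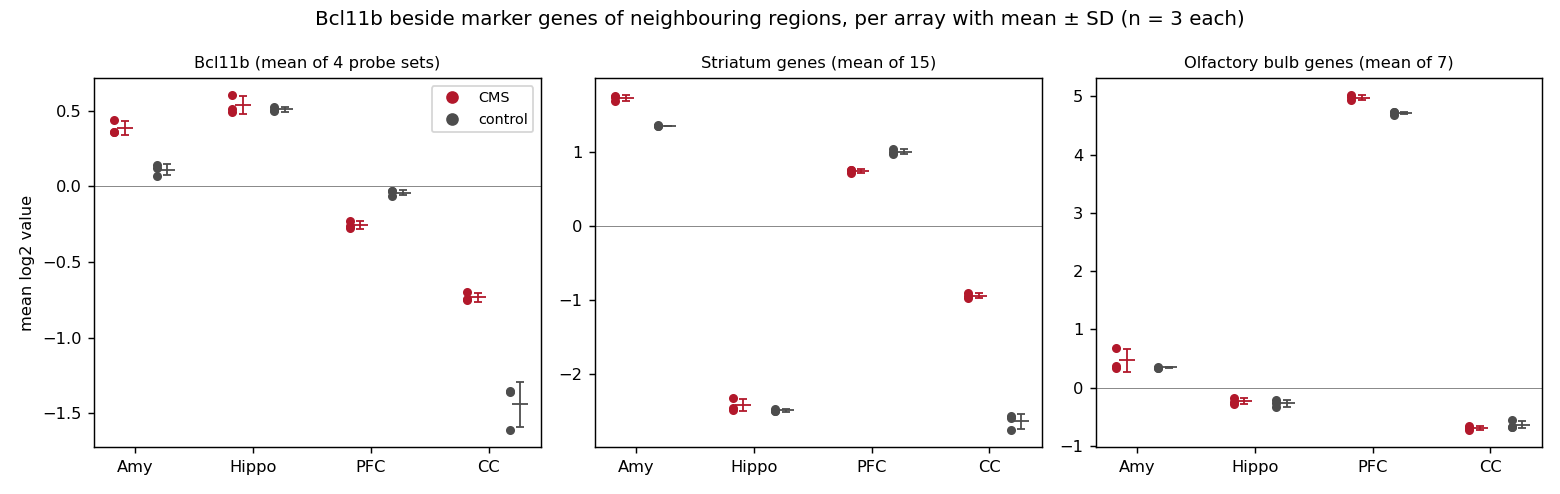
Mean log2 value per array of the 4 Bcl11b probe sets (left), of the 15 striatum genes (middle) and of the 7 olfactory bulb genes (right) in CMS (red, left) and control (grey, right) arrays of each area, with mean ± SD (n = 3). Bcl11b and the striatum genes are both higher in CMS than in control arrays of Amy and CC and lower in PFC, while in Hippo Bcl11b is high and the striatum genes are low.

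Rasgrf2 rose in CC with 2 of 3 probe sets. For 1440918_at the values were 0.95, 0.76 and 0.92 in CMS arrays and 0.09, 0.20 and -0.10 in control arrays, 0.81 ± 0.09 (SE) higher (adjusted p = 0.0093). For 1421621_at they were 0.74, 0.87 and 0.49 in CMS arrays, against 0.03, -0.03 and -0.01 in control arrays, 0.71 ± 0.10 higher (adjusted p = 0.017), while 1440849_at gave -0.07 (adjusted p = 0.36). Rorb 1455799_at had the largest difference in CC, 1.25 ± 0.32 (SE), with 1.97, 1.08 and 1.73 in CMS arrays and 0.16, 0.05 and 0.83 in control arrays. These arrays do not overlap, but it missed the adjusted p (0.082), and the 2 Rorb probe sets that are highest in CC gave 0.05 and -0.08. Foxp2 1438232_at was 0.16 higher (adjusted p = 0.042), and the shared Etv1 and Gm5454 probe set 1450684_at fell by 0.46 (adjusted p = 0.0038). Tbr1 gave -0.23 (adjusted p = 0.28), Fezf2 -0.22 (adjusted p = 0.12) and Cux2 1450181_at -0.17 (adjusted p = 0.48).

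Of the other layer genes some of layers 5 and 6 were called with CMS, in Amy and in Hippo. None of the 15 upper-layer genes passed in any area, though Stard8 was 0.88 higher in CMS Amy (adjusted p = 0.018). Of the 16 layer 5 genes 1 was called, Tshz2, which fell by 1.09 in Hippo (adjusted p = 0.0057). Of the 16 layer 6 genes, Ccn2, a matrix-associated growth factor that marks the deepest cortical neurons, rose by 1.04 in Amy (adjusted p = 0.0008) and fell by 1.03 in Hippo (adjusted p = 0.0062), and Cplx3 fell by 1.03 in Hippo (adjusted p = 0.024). In Hippo 1 of 16 layer 5 and 2 of 16 layer 6 genes were thus called lower, against 0.11% of all genes. In Amy 1 of 16 layer 6 genes was called higher, against 0.143%. By adjusted p alone, 4 upper-layer genes were higher and 2 lower in CMS Amy, 3 layer 5 genes higher and 6 lower, and 3 layer 6 genes higher and 2 lower, against 10.5% and 8.84% of all genes. In Hippo no upper-layer gene was higher and 3 were lower, 2 layer 5 genes were higher and 8 lower, and no layer 6 gene was higher and 5 were lower, against 4.66% and 24.9%. In PFC the counts were 0 and 2, 3 and 1, and 0 and 2, against 4.45% and 3.92%, and in CC 1 and 3, 2 and 5, and 1 and 0, against 5.95% and 3.99%.

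The third question was whether the CMS effect differed between areas. In a limma fit of all 24 arrays, 9 of the 30 probe sets were called, at an adjusted p under 0.05 and effects that spanned more than 2-fold over the 4 areas, against 6.05% of all probe sets. By adjusted p alone 20 of the 30 passed, against 55% of all. Of the 9, 3 were of Cux1, 2 of Rasgrf2 and 1 each of Cux2, Rorb, Bcl11b and Foxp2. Taken as genes none of the 8 spanned 2-fold (2.47% of all genes were called), and all 8 passed the adjusted p, against 52.3% of all genes. The effects on Cux2 1447500_at were 1.06 in Amy, -0.59 in Hippo, 0.09 in PFC and -0.21 in CC, a span of 1.65 (adjusted p = 4.9e-10). Those on Bcl11b 1450339_a_at were 0.33 in Amy, 0.16 in Hippo, -0.41 in PFC and 1.01 in CC (span 1.43, adjusted p = 2.2e-05), so that PFC and CC moved in opposite directions. Rasgrf2 1440918_at had the same opposition with -0.30 in PFC and 0.81 in CC (span 1.11, adjusted p = 0.0053), though its difference in PFC alone did not pass (adjusted p = 0.32).

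The 24 arrays hold 3 arrays of each of 8 groups, so correlations over them mostly reflect the areas. As means of their probe sets, the 4 upper-layer genes correlated with each other at Pearson's r between 0.81 and 0.91. Probe sets of the same gene agreed less. Their r ran from -0.76 to 0.94 for Cux1, -0.19 to 0.78 for Cux2, -0.06 to 0.64 for Rorb and 0.43 to 0.81 for Rasgrf2. Tbr1 followed the upper-layer genes (r = 0.93 with Rorb, 0.70 with Rasgrf2), whereas Bcl11b ran opposite to Tbr1 (r = -0.87) and to Rorb (r = -0.82). Fezf2 ran opposite to Foxp2 (r = -0.78) and had r of -0.33 with Bcl11b. The genes most like each member over the same arrays were Foxp1, Septin11 and Prkcz for Cux1, Stmn1, Lrrc75a and Camk2n1 for Cux2, Plcb1, Rcan2 and Flrt1 for Rasgrf2, and Osbpl1a, Ipcef1 and Fabp3 for Rorb. For the deep-layer genes they were Doc2b, Nnat and Tgfbr3 for Bcl11b, Galnt9, Car4 and Nfix for Fezf2, Asap1, Medag and Vip for Tbr1, and Prkar2b, Ric8b and Gucy1a1 for Foxp2. The closest of all was Prkar2b, a regulatory subunit of protein kinase A, with r = 0.996 to Foxp2, and the lowest of these 24 values was 0.94.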

How the data were processed

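The authors summarized the CEL files with GCRMA in GeneSpring GX and applied a baseline normalization, and the deposited values are log2 values. Their versions are not known here. Of 45101 probe sets, the 64 Affymetrix controls were left out and 45037 were tested, of which 34945 had 1 gene symbol, 932 several and 9160 none. Probe sets of 1 gene were averaged. limma 3.58.1 (R 4.3.3) was fitted to the 12 control arrays for the areas, to the 6 arrays of an area for CMS, and to all 24 arrays for the difference between areas, two-sided, with Benjamini-Hochberg adjustment over all probe sets or all genes. Calls needed an adjusted p under 0.05 and a log2 difference over 1. In all 12 comparisons were made. Precision is limited by 3 arrays per group. In the centred values, which leave out the level of each probe set, 2 arrays of the same group correlated at 0.928 at most. Named were all members and, per list, up to 3 called genes with the largest change, or up to 2 where none was called, and the 3 genes most like each member. Choroid plexus, pallial, thalamic, striatal, amygdala and hippocampus genes served as markers, as did olfactory bulb genes. Interneuron, oligodendrocyte and astrocyte lists were read too: of 8, 5 and 4 genes none passed both limits with CMS in any area, and several passed the adjusted p alone. The members and lists were chosen with earlier results of these data known. Alternatives were genes, array weights, trend, a robust fit, median centring, quantile normalization, leaving out probe sets of low SD, a fit of all arrays, no fold limit, a replicate block, the methods' t-test and leaving out each array. The scripts were tested on simulated data. Motifs and upstream windows come from RefSeq (GRCm38.p6), and Foxp2 is not among them. Plots used Python 3.11.15 with matplotlib 3.10.9.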

Additional observations from a re-analysis of the deposited data

Results flagged for a closer look

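The effect of CMS differed between the 4 areas for 9 layer gene probe sets, by limma's F test over all 24 arrays and a span of the effects above 2-fold, as against 6.05% of all probe sets. The spans on the log2 scale were 1.65 for Cux2 1447500_at (adjusted p = 4.9e-10), 1.43 for Bcl11b 1450339_a_at (adjusted p = 2.19e-05), 1.53 for Foxp2 1438232_at (adjusted p = 0.000939), 1.04 for Rasgrf2 1421621_at (adjusted p = 0.000186) and 1.11 for Rasgrf2 1440918_at (adjusted p = 0.00531). For Cux1 they were 1.07 for 1425611_a_at (adjusted p = 0.00156), 1.51 for 1437431_at (adjusted p = 0.00405) and 1.13 for 1441956_s_at (adjusted p = 0.00297), and for Rorb 1455799_at 1.09 (adjusted p = 0.0222).

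In 1425611_a_at of Cux1 the effects were -0.75 in Amy, 0.27 in Hippo, -0.37 in PFC and 0.32 in CC. In 1441956_s_at of the same gene they were 0.70 in Amy, -0.13 in Hippo, -0.43 in PFC and 0.40 in CC. These probe sets thus had opposite signs in Amy and in Hippo, but in Hippo the CMS and control arrays overlapped for both. The 95% confidence intervals in Amy were -1.06 to -0.45 for 1425611_a_at and 0.06 to 1.34 for 1441956_s_at. These intervals are not adjusted for the number of probe sets, and 1441956_s_at did not pass the adjusted p in Amy.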

How the results depend on the processing

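No called difference changed its direction in any alternative. Genes in place of probe sets gave 7 of 8 called across the control areas, 5 in Amy minus CC, 5 in Hippo minus CC, 2 in PFC minus CC, 3 in Amy minus PFC, 5 in Hippo minus PFC and 2 in Amy minus Hippo, and 0 for CMS in each area and for the difference between areas, where fewer features are counted. Adjusted p alone gave 21 in PFC minus CC, 21 in Amy minus PFC, 26 in Hippo minus PFC, 8 for CMS in Amy, 10 in Hippo, 4 in PFC and 7 in CC, and 20 for the difference between areas. The single CMS calls of Foxp2, Cux1 and Bcl11b were lost in some alternatives, and that of Cux2 in Amy was kept in each alternative on probe sets. In Hippo 0 were called after quantile normalization (Foxp2 1438232_at, adjusted p = 0.13) and after median centring (adjusted p = 0.063). In PFC 0 were called with array weights (Cux1 1437431_at, -0.88) and by the methods' t-test after Benjamini-Hochberg (adjusted p = 0.0758). In CC 0 were called after quantile normalization (Bcl11b 1450339_a_at, 0.90) and by the methods' t-test (adjusted p = 0.0904), and 2 when the probe sets with an SD below the median were left out or all arrays were fitted together, where Rorb 1455799_at was added (adjusted p = 0.041 and 0.00066). Array weights took Bcl11b 1450339_a_at to 0.75 and Rorb 1455799_at past both limits. The cause was not tested.

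With each array left out in turn, 23 probe sets were called across control areas each time, 15 to 17 in Amy minus CC, 17 to 19 in Hippo minus CC, 9 to 12 in PFC minus CC, 5 to 8 in Amy minus PFC, 16 to 17 in Hippo minus PFC and 11 to 12 in Amy minus Hippo, 1 for CMS in Amy, 0 to 1 in Hippo, PFC and CC, and 7 to 9 for the difference between areas. With group means taken out of the values, in no pair of groups did every same-numbered pair of arrays correlate above 0.1. The arrays were fitted as unpaired. With 3 arrays per group this cannot exclude that same-numbered arrays of different areas come from the same animals. With the replicate block 23, 16, 19, 10, 7, 16 and 11 were called in the 7 comparisons of control areas, 1 for CMS in Amy, 0 in Hippo, 0 in PFC, 0 in CC and 9 for the difference between areas.

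The number of arrays limits all tests. The centred table holds no level, so signal over background is unknown. Area, dissection and handling cannot be told apart, and no scan date was given in the sources used here. Within an area, CMS, dissection and handling cannot be told apart either.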
